A study of Mus musculus with 48 samples.

Results

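The 40 cell cycle and DNA replication genes described here are 16 genes of S phase and 24 genes of mitosis, taken by gene name from the 17490 genes in the 4 deposited tables. The S phase genes are Ccne1, Ccne2, Pcna, Mcm2, Mcm3, Mcm4, Mcm5, Mcm6, Mcm7, Rrm1, Rrm2, Tyms, Gins2, Cdc6, Cdt1 and E2f1. The mitotic genes are Mki67, Top2a, Cdk1, Ccna2, Ccnb1, Ccnb2, Bub1, Bub1b, Aurka, Aurkb, Plk1, Kif11, Kif20a, Kif23, Cenpa, Cenpe, Cenpf, Birc5, Cdc20, Ube2c, Tpx2, Prc1, Nusap1 and Foxm1. All 40 stood once in each table, and all 40 passed the filter on low counts in every fit, with a lowest count of 18 in any library.

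RNA-seq was made from 4 skeletal muscles of C57BL/6 mice at postnatal day 0, the day of birth. The muscles are the diaphragm (Dia) and, from the limb, the gastrocnemius (Gastroc), the tibialis anterior (TA) and the quadriceps (Quad). The Myh3 knockout (KO) groups are labelled MyH3delta/delta and the wild-type (WT) groups MyH3+/+, and each genotype has 6 libraries from each muscle, 48 libraries in all. Myh3 encodes embryonic myosin heavy chain, a motor protein of developing muscle fibres. The labels name no Cre or transgene and do not give the extent of the deletion, whether animals were pooled or whether the libraries of a group come from separate animals, so p-values measure the spread between these libraries, which may be technical. The deposited columns of each group are numbered 0 to 5.

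Cells copy their DNA in S phase and divide it in mitosis, and the genes for the 2 steps are switched on in succession. E2F transcription factors switch on the enzymes that make DNA building blocks and the complexes that open and copy the DNA at the start of S phase. Genes for the spindle, the centromere and the destruction of cyclins are held off until G2 and mitosis, largely through CHR and CCAAT elements in their promoters. In muscle, fibres do not divide, and new nuclei come from dividing progenitors that fuse with the fibres. Whole muscle also holds dividing connective tissue, vessel and blood cells, and in such bulk samples fewer dividing cells and less RNA per cell cannot be told apart.

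Promoters are shown for 5 members as examples of the CHR, CCAAT and E2F words searched for in both sets, and these 5 were picked after the matches were seen. A RefSeq promoter (GRCm38.p6, the same assembly as mm10) was matched for 32 members, 13 of S phase and 19 of mitosis, and the 250 bases before each gene start were searched on both strands. The CHR word was TTTGAA or its variant TTCGAA. The CCAAT box was the word of that name. The E2F words were TTCCCGC and its variant TTCGCGC, with TTGCCGC and its variant TTGGCGC. Each sequence below is the 150 bases before the RefSeq gene start on the gene's own strand, with matches to any of these words, or to their reverse complements, in capitals.
Cdk1, chr10:69352913-69353062, minus strand: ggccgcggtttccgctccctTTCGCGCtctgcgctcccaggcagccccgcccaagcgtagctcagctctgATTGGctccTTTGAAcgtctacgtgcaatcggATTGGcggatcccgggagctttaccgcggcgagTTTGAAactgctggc
Top2a, chr11:99024190-99024339, minus strand: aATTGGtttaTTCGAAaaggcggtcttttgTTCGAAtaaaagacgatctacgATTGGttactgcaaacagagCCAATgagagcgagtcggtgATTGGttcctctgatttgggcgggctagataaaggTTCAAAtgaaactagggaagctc
Cdc20, chr4:118437344-118437493, minus strand: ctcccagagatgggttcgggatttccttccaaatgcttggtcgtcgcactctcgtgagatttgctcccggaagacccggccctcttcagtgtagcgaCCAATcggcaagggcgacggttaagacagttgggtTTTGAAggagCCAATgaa
Mcm6, chr1:128359706-128359855, minus strand: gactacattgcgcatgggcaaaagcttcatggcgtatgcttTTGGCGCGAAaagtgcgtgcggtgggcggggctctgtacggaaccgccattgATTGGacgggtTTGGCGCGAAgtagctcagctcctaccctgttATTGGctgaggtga
Rrm1, chr7:102441545-102441694, plus strand: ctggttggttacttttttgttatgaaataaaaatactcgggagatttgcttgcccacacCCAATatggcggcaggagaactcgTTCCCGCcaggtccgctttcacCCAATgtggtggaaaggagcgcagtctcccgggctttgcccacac
Cdk1 is the kinase that drives entry into mitosis, Top2a untangles sister chromatids and Cdc20 activates the complex that destroys cyclins. Mcm6 is a subunit of the helicase that opens DNA for copying, and Rrm1 is the large subunit of the enzyme that makes deoxyribonucleotides. In mm10 the deposited tables place Cdk1 (ENSMUSG00000019942) at chr10:69336635-69352938, Top2a (ENSMUSG00000020914) at chr11:98992943-99024189 and Cdc20 (ENSMUSG00000006398) at chr4:118432901-118437352, all on the minus strand. They place Mcm6 (ENSMUSG00000026355) at chr1:128331591-128359656 on the minus strand and Rrm1 (ENSMUSG00000030978) at chr7:102441695-102469771 on the plus strand. The RefSeq gene starts differ from these in part. The Cdk1 window reaches 26 bases and the Cdc20 window 9 bases into the gene as the tables place it. The CHR word of Cdk1 nearest the start and the CCAAT box of Cdc20 nearest the start thus lie inside the gene. The Mcm6 window ends 49 bases before its gene. In Mcm6 the E2F words of the plus and minus strands overlap each other. No match of different motifs overlapped in these 5 windows.

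A CHR word was found in 9 of 19 mitotic and 2 of 13 S phase promoters, against 19.6% of all 27025 promoters. A CCAAT box was found in 17 of 19 mitotic and 8 of 13 S phase promoters, against 37.5% of all. An E2F word was found in 3 of 19 mitotic and 6 of 13 S phase promoters, against 9.01% of all. The matches describe letters in these windows and not bound sites.

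Myh3 was measured in every library. It averaged 4684 ± 618 scaled counts per 1000000 (CPM) in KO and 4726 ± 684 in WT Quad, and 3559 ± 383 in KO and 4612 ± 596 in WT TA. It averaged 4677 ± 442 CPM in KO and 4304 ± 432 in WT Gastroc, and 1655 ± 428 in KO and 1205 ± 312 in WT Dia (SD, n = 6 each). Reads were counted over the whole gene, so the Myh3 count does not check the genotype. Its edgeR adjusted p ran from 0.183 in TA to 1 in Dia, while the authors' deposited table has Myh3 lower in KO TA, with a log2 ratio of -0.32 and an adjusted p of 0.0406. Library totals ran from 11.9 M to 24.3 M counts, with a median of 16.1 M.

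Before any comparison, KO columns 0 and 1 stood apart from KO columns 2 to 5 in all 4 muscles in the S phase genes. Summed over the 16 S phase genes, KO columns 0 and 1 had 567 and 546 CPM in Quad, 534 and 518 in TA, 686 and 664 in Gastroc and 400.2 and 349 in Dia. KO columns 2 to 5 had 311 to 383 CPM in Quad, 294 to 358 in TA, 380.3 to 464 in Gastroc and 196 to 259 in Dia. WT libraries had 409 to 468 CPM in Quad, 409 to 473 in TA, 478 to 561 in Gastroc and 242 to 318.5 in Dia. In each muscle the 2 KO libraries of columns 0 and 1 were above all WT libraries, and KO columns 2 to 5 were below all WT libraries in Quad, TA and Gastroc and overlapped them in Dia.

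For the mitotic sum, KO columns 0 and 1 were again the highest KO libraries in each muscle, but KO columns 2 to 5 lay inside the WT range in every muscle. KO columns 0 and 1 had 973 and 913 CPM in Quad, 913 and 883 in TA, 1143 and 1135 in Gastroc and 615 and 492 in Dia. KO columns 2 to 5 had 733 to 828 CPM in Quad, 646 to 827 in TA, 828 to 1001 in Gastroc and 389 to 480 in Dia. WT libraries had 653 to 913 CPM in Quad, 633 to 898 in TA, 753 to 1073 in Gastroc and 319 to 529 in Dia. The SD of the S phase sum over the 6 KO libraries was 5.02 times that over the 6 WT libraries in Quad, 4.41 times in TA, 4.71 times in Gastroc and 2.88 times in Dia, and for the mitotic sum the same ratios were 0.86, 0.86, 1.07 and 0.95.

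**Figure D1:**
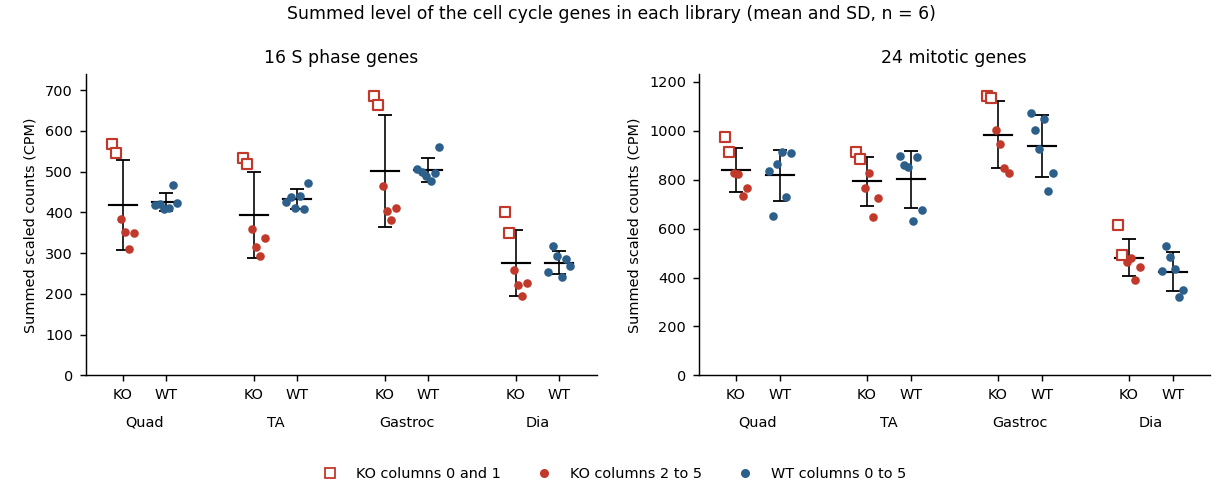
Summed CPM of the 16 S phase genes and of the 24 mitotic genes in each of the 48 libraries, with KO left of WT in each muscle. Bars are mean ± SD (n = 6), and open squares mark KO columns 0 and 1, which have the highest S phase sums of their muscle.

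Gene by gene, KO columns 0 and 1 both lay above all 6 WT libraries for 11 of 16 S phase genes in Quad, 11 in TA, 13 in Gastroc and 13 in Dia. Over all genes in all 4 tables the same order was found for 11.8% in Quad, 12.4% in TA, 11.7% in Gastroc and 9.24% in Dia. It held in all 4 muscles for Cdc6, Cdt1, E2f1, Mcm5, Mcm6, Pcna, Rrm2 and Tyms, 8 of 16, against 1.54% of all genes. Among the 24 mitotic genes it held for 8 in Quad, 4 in TA, 13 in Gastroc and 4 in Dia, and for 0 in all 4 muscles. KO columns 2 to 5 all lay below all 6 WT libraries for 10 S phase genes in TA, against 2.53% of all genes, and for 4 in Quad, 2 in Gastroc and 2 in Dia, against 2.55%, 1.35% and 2.53%. No mitotic gene had that order in any of the 4 muscles.

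Other transcripts moved with these columns. The liver marker sum was 87.4 and 140.1 CPM in KO columns 0 and 1 of Quad, 26.5 to 51.6 in KO columns 2 to 5 and 37.6 to 54.0 in WT. In TA it was 118.5 and 129 CPM in KO columns 0 and 1, 23.0 to 42.7 in KO columns 2 to 5 and 22.8 to 56.8 in WT. In Gastroc it was 73.2 and 60.2 CPM in KO columns 0 and 1, 24.3 to 39.1 in KO columns 2 to 5 and 27.4 to 63.6 in WT. In Dia it was 7980.2 and 12853 CPM in KO columns 0 and 1, 142 to 5065 in KO columns 2 to 5 and 508 to 7650 in WT. Columns 0 and 1 had the most liver transcript of the KO libraries in every muscle and, except column 1 of Gastroc, more than any WT library. KO columns 0 and 1 lay above all WT libraries for 8, 9, 6 and 4 of 9 liver markers in Quad, TA, Gastroc and Dia. The same counts were 2, 2, 3 and 5 of 10 for fibroblast, 1, 2, 1 and 4 of 10 for macrophage, 1, 1, 1 and 0 of 10 for endothelial, 2, 1, 4 and 1 of 7 for cartilage and 0, 0, 0 and 4 of 6 for erythroid markers. For muscle progenitor markers they were 0, 1, 1 and 1 of 11. In wider cell cycle lists, described below, they were 14, 17, 27 and 9 of 49 for other replication genes. They were 12, 8, 21 and 5 of 49 for other mitotic genes. They were 7, 6, 7 and 5 of 21 for G1 genes and 6, 7, 6 and 8 of 18 for cell cycle inhibitors. Over all genes the shares were 11.8%, 12.4%, 11.7% and 9.24%, in the same order of muscles. None of these lists had a marker at 0 in every library, and 3 liver markers in Quad, 2 in TA and 4 in Gastroc were at 0 in some library. Their part in the results below was not tested, and each KO result is given with and without columns 0 and 1.

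By muscle, the summed levels of both sets were highest in Gastroc and lowest in Dia. The S phase sum averaged 501 ± 138 CPM in KO and 505 ± 29 in WT Gastroc, and 276 ± 81 in KO and 277 ± 28 in WT Dia. The mitotic sum averaged 984 ± 136 CPM in KO and 938 ± 127 in WT Gastroc, and 481 ± 75 in KO and 423 ± 79 in WT Dia (SD, n = 6 each). Quad and TA lay between them, and their means were within the SD of each other in both genotypes: 418 ± 110 in KO and 425 ± 22 in WT Quad and 393 ± 106 in KO and 432 ± 24 in WT TA for the S phase sum.

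Levels of different members were compared as CPM per kilobase of exon. Mcm6 had 19.8 ± 3.9 CPM per kilobase in KO and 19.0 ± 1.3 in WT Quad. Ccna2, the cyclin of S phase and G2, had 19.2 ± 2.8 in KO and 19.2 ± 2.6 in WT Quad. These were the members with the highest levels per length in KO and WT Quad, and they did not differ beyond their SD. The lowest was Cdc6, which loads the helicase on DNA, with 0.915 ± 0.34 CPM per kilobase in KO and 0.803 ± 0.054 in WT Quad. In Dia the highest levels per length were those of Mcm6, with 11.95 ± 3.7 in KO and 12.7 ± 1.1 in WT, and Rrm1, with 11.4 ± 2.6 in KO and 11.6 ± 1.5 in WT (SD, n = 6 each). Neither pair of neighbours differed beyond its SD.

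The comparison of KO with WT in each muscle asks whether loss of Myh3 changed these genes at birth. In the 4 muscles 0 of 40 members passed an adjusted p of 0.05 (edgeR quasi-likelihood test, Benjamini-Hochberg over all genes tested). The tests called 0% of all genes in Quad, 0.0973% in TA, 0.157% in Gastroc and 0.00690% in Dia, so the absence of member calls is near the background. At an unadjusted p under 0.05 there was 1 member in 1 muscle, Cenpa in Dia. In the authors' deposited table the lowest adjusted p of any member was 0.893 in Quad, 0.826 in TA, 0.929 in Gastroc and 0.877 in Dia. Over all genes those DESeq2 values passed 0.05 for 72 genes in Quad, 108 in TA, 95 in Gastroc and 28 in Dia.

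Among the helicase genes, Mcm2 had 23.9, 26.5 and 48.7 CPM (lowest, median and highest) in KO Quad, against 26.2, 33.8 and 43.2 in WT Quad. In Dia it had 12.9, 16.9 and 32.5 CPM in KO, against 14.7, 22.2 and 26.6 in WT. The KO and WT libraries overlapped in both muscles. The log2 change was -0.11 ± 0.19 in Quad (SE; adjusted p = 0.994).

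Pcna encodes the sliding clamp that holds DNA polymerase on its template. In Quad it had 33.6 and 33.3 CPM in KO columns 0 and 1, 15.998 to 21.0 in KO columns 2 to 5, and 22.3, 24.6 and 28.3 (lowest, median and highest) in WT. In TA it had 30.4 and 32.6 CPM in KO columns 0 and 1, 16.3 to 22.7 in KO columns 2 to 5, and 22.7, 23.6 and 27.9 in WT. KO values lay on either side of the WT range, and no KO library of Quad fell inside it. In Gastroc it had 39.2 and 44.0 CPM in KO columns 0 and 1, 20.8 to 26.6 in KO columns 2 to 5, and 24.03, 30.4 and 35.2 in WT. In Dia it had 27.1 and 26.4 CPM in KO columns 0 and 1, 15.98 to 20.1 in KO columns 2 to 5, and 13.7, 19.4 and 21.4 in WT. Its group means were 23.4 ± 8.0 CPM in KO and 24.6 ± 2.2 in WT Quad, and 20.5 ± 5.0 in KO and 18.3 ± 3.3 in WT Dia (SD, n = 6 each). In Dia the log2 change of Pcna was 0.16 ± 0.16 (SE; adjusted p = 1).

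Rrm2 encodes the small subunit of ribonucleotide reductase, made mainly in dividing cells. In Quad it had 28.7 and 29.1 CPM in KO columns 0 and 1, 15.5 to 17.9 in KO columns 2 to 5, and 17.8, 19.9 and 22.3 in WT. In TA it had 27.8 and 26.2 CPM in KO columns 0 and 1, 14.9 to 18.5 in KO columns 2 to 5, and 20.8, 22.5 and 24.6 in WT. In TA the KO libraries were all outside the WT range, 2 above it and 4 below it. The group means were 20.2 ± 5.4 CPM in KO TA and 22.7 ± 1.4 in WT TA (SD, n = 6 each).

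E2f1, a transcription factor that opens S phase, had 23.8 and 23.0 CPM in KO columns 0 and 1 of TA, 12.1 to 16.02 in KO columns 2 to 5, and 17.3, 18.04 and 22.6 in WT. In Dia it had 13.2 and 10.02 CPM in KO columns 0 and 1, 6.91 to 7.42 in KO columns 2 to 5, and 7.07, 9.20 and 9.70 in WT. Columns 0 and 1 were above every WT library in both muscles. The smallest p-values among S phase genes were those of Mcm4, Cdc6 and Mcm2 in Quad, Ccne1, Mcm6 and Rrm1 in TA, Cdc6, Mcm2 and Mcm7 in Gastroc, and Pcna, Mcm7 and Mcm4 in Dia. Their log2 changes ran from -0.32 for Ccne1, a cyclin that starts S phase, in TA (SE 0.21; adjusted p = 0.821) to 0.19 for Cdc6 in Gastroc (SE 0.19; adjusted p = 0.958).

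**Figure D2:**
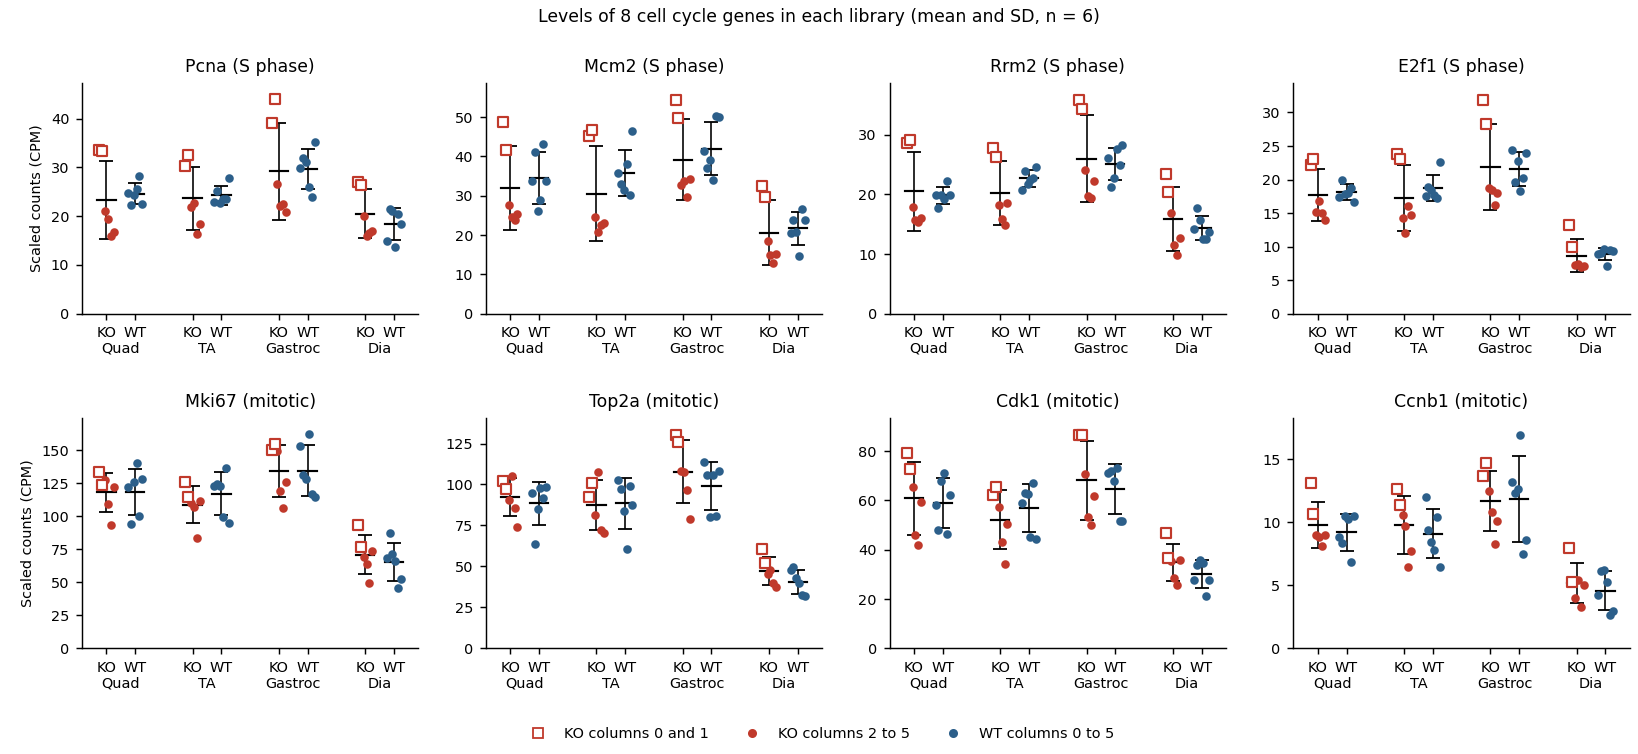
CPM of 8 members in each library, with KO left of WT in each muscle, for Pcna, Mcm2, Rrm2 and E2f1 of S phase and Mki67, Top2a, Cdk1 and Ccnb1 of mitosis. Bars are mean ± SD (n = 6) and open squares are KO columns 0 and 1, which lie above KO columns 2 to 5 for Pcna, Mcm2, Rrm2 and E2f1 in every muscle.

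Among mitotic genes, Mki67, the gene of the proliferation marker Ki-67, had 93.6, 123 and 134 CPM (lowest, median and highest) in KO Quad, against 94.2, 124 and 140.2 in WT Quad. Cdk1 had 41.9, 62.5 and 79.3 CPM in KO Quad, against 46.2, 60.2 and 71.3 in WT Quad. Top2a had 74.2, 94.0 and 105.5 CPM in KO Quad, against 63.8, 93.2 and 98.3 in WT Quad. The KO and WT libraries overlapped over nearly their whole range for these 3 genes. Ccnb1, the cyclin that activates Cdk1, had 8.10, 8.99 and 13.2 CPM in KO Quad, against 6.89, 9.54 and 10.5 in WT Quad.

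The mitotic genes with the smallest p were Bub1, Tpx2 and Bub1b in Quad, Cenpf, Mki67 and Bub1b in TA, Aurka, Nusap1 and Bub1b in Gastroc, and Cenpa, Ube2c and Kif23 in Dia. Bub1 and Bub1b belong to the spindle checkpoint, which holds back chromosome separation. Bub1 had a log2 change of 0.17 ± 0.10 in Quad (SE; adjusted p = 0.884), and Aurka, a spindle pole kinase, had 0.22 ± 0.14 in Gastroc (SE; adjusted p = 0.880). Cenpa, the histone of the centromere, had 22.5 and 17.9 CPM in KO columns 0 and 1 of Dia, 14.7 to 19.3 in KO columns 2 to 5, and 10.8, 14.2 and 19.5 in WT Dia. Its log2 change in Dia was 0.33 ± 0.15 (SE; edgeR adjusted p = 1).

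The median log2 change over the S phase genes was -0.02 in Quad, -0.15 in TA, -0.00 in Gastroc and -0.01 in Dia. Over the mitotic genes it was 0.06 in Quad, -0.01 in TA, 0.08 in Gastroc and 0.20 in Dia, while the median over all genes tested was 0.01 in each muscle. In Dia the estimates of all 24 mitotic genes were above 0, in a range of 0.01 to 0.33. SEs ran from 0.10 to 0.26 for S phase genes in Dia and from 0.09 to 0.16 for mitotic genes in Quad. A test of whether the KO change was equal in the 4 muscles called 0 members and 0.0133% of all genes.

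Leaving out KO columns 0 and 1 moved the S phase genes and, less so, the mitotic genes. These columns were chosen because earlier results of these data had marked them for liver transcripts, and they are also the KO columns with the highest S phase sums, so leaving them out lowers the KO level by construction. All WT libraries were kept, although the highest and second highest S phase to mitotic ratios stood apart in each WT group too. In Quad these were 0.646 and 0.643 in WT, with the third at 0.499, against 0.583 and 0.598 in KO columns 0 and 1. The S phase median became -0.31 in Quad, -0.40 in TA, -0.28 in Gastroc and -0.34 in Dia. The mitotic median became -0.07 in Quad, -0.10 in TA, -0.04 in Gastroc and 0.11 in Dia. Without them 6 members fell in TA, where 0.452% of all genes were called lower, and 0 members were called in Quad, Gastroc or Dia, where 0.893%, 0.728% and 0.489% of all genes were called in either direction.

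The 6 genes called lower in TA without KO columns 0 and 1 were all S phase genes, whose KO level this choice lowers by construction. With all libraries none of them passed, so their p-values below are no test of the genotype. Mcm5 had 18.9 to 23.4 CPM in KO columns 2 to 5, against 25.6, 32.1 and 35.3 in WT, with a log2 change of -0.61 (edgeR adjusted p = 0.0164). Ccne1 had 12.3 to 13.6 CPM in KO columns 2 to 5, against 16.9, 20.7 and 28.7 in WT, with a log2 change of -0.72 (adjusted p = 0.0245). KO columns 2 to 5 did not overlap the WT libraries for either gene. KO columns 0 and 1 of TA had 41.5 and 36.5 CPM of Mcm5 and 23.5 and 28.7 CPM of Ccne1. The other 4 were Mcm2 (log2 change -0.65), Mcm6 (-0.35), Rrm1 (-0.37) and Rrm2 (-0.43), with adjusted p-values of 0.0214, 0.0302, 0.0328 and 0.0439.

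**Figure D3:**
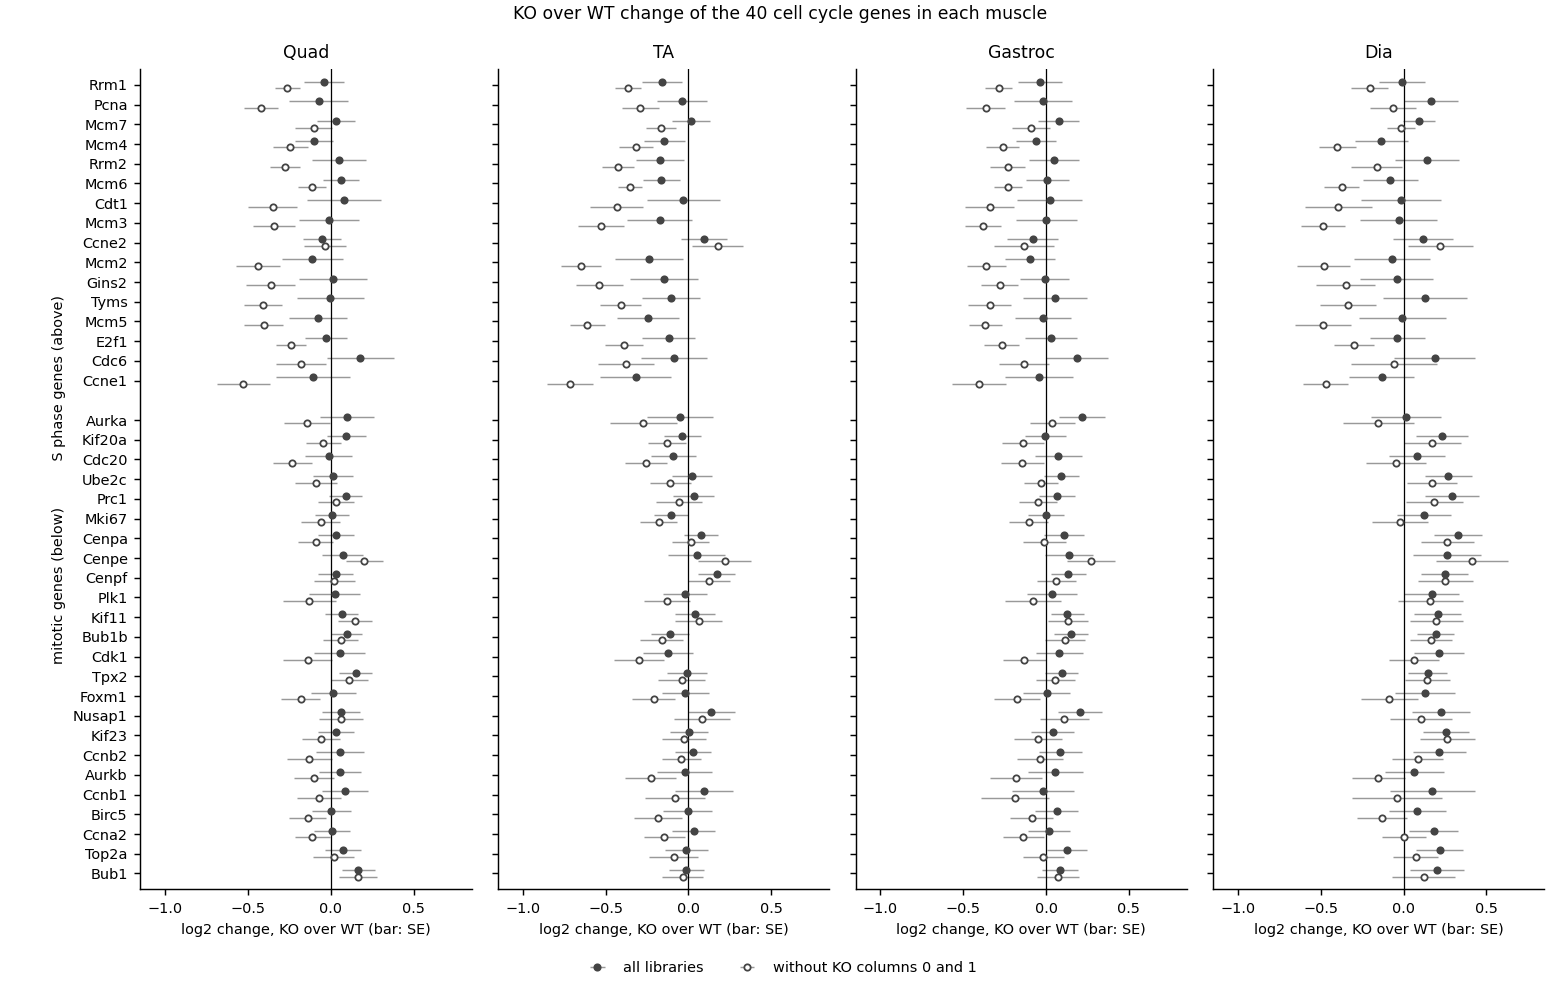
Log2 change of each of the 40 members in KO over WT, in each muscle. Filled points use all libraries and open points leave out KO columns 0 and 1, and for the S phase genes most open points lie to the left of the filled points.

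Over the 4 muscles together, with muscle as a term, 0 members passed the test, against 7.15% of all genes. That fit counts the 4 muscles of a KO column as separate libraries, although the KO columns of 1 number resembled each other across muscles. With counts summed over the 4 muscles of a column number, 0 members and 0.0922% of all genes were called. WT columns of 1 number resembled each other across muscles only in part. Those most correlated with their own number were 1 of 6 in Quad against TA and 4 of 6 in TA against Gastroc. A WT sum thus joins some libraries that the data do not pair, and the p-values of the summed counts rest on these sums. Leaving out KO columns 0 and 1 lowers the KO level of the S phase genes by construction. The lower calls that follow are thus no test of the genotype. Without KO columns 0 and 1 the summed counts called 11 members lower, all of S phase, against 2.80% of all genes called lower. They included Mcm5 (log2 change -0.46, adjusted p = 0.0122, edgeR), E2f1, Pcna and Tyms. The 48-library fit without these columns called 13 S phase genes lower, where 15.1% of all genes were called lower. It called 1 member higher, Cenpe, a kinesin of the centromere (log2 change 0.27), where 15.1% of all genes were called higher. That count is below the share over all genes.

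Cenpe, chosen after its values were seen, had the opposite order of KO columns, so leaving out columns 0 and 1 raises its KO level by construction. In Quad it had 13.4 and 11.9 CPM in KO columns 0 and 1, 15.1 to 18.3 in KO columns 2 to 5, and 12.9, 15.1 and 17.8 in WT. In Gastroc it had 15.2 and 15.3 CPM in KO columns 0 and 1, 16.4 to 23.6 in KO columns 2 to 5, and 13.1, 16.4 and 21.5 in WT. Columns 0 and 1 were below KO columns 2 to 5 in both. In Dia it had 7.53 and 7.96 CPM in KO columns 0 and 1, 9.48 to 13.6 in KO columns 2 to 5, and 4.36, 8.61 and 10.3 in WT. In TA it had 12.4 and 10.5 CPM in KO columns 0 and 1, 13.7 to 20.1 in KO columns 2 to 5, and 11.2, 15.0 and 19.9 in WT. The order was the same in these 2 muscles. KO columns 0 and 1 lay above KO columns 2 to 5 in all 4 muscles for 6 of 24 mitotic genes. The same held for 14 of 16 S phase genes, against 7.54% of all genes.

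**Figure D4:**
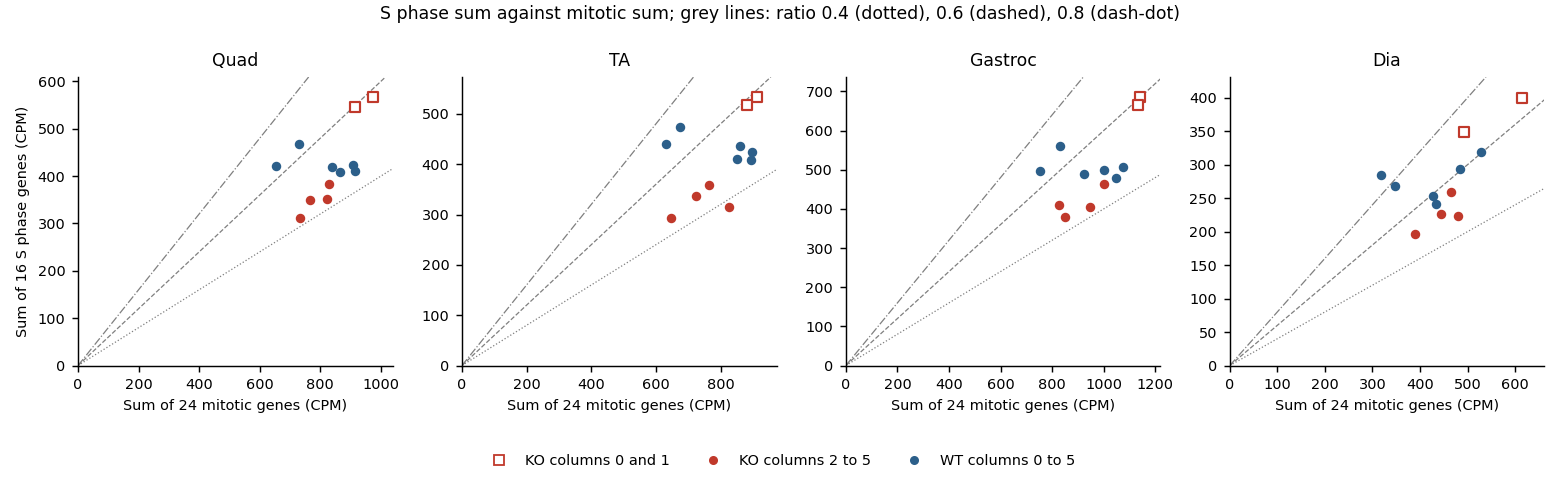
Summed CPM of the S phase genes against summed CPM of the mitotic genes, 1 point per library and 1 panel per muscle, with KO listed above WT. Grey lines mark S phase to mitotic ratios of 0.4, 0.6 and 0.8, and KO columns 0 and 1 (open squares) have S phase sums of 567 and 546 CPM in Quad, above all WT libraries.

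The diaphragm was then set against the mean of the 3 limb muscles within each genotype, a comparison that shows how far these genes differ between muscles of 1 age. In KO, 39 of 40 members were lower in Dia, 15 of 16 S phase genes and 24 of 24 mitotic genes, where 23.0% of all genes were called lower. In WT, 40 of 40 were lower, where 27.2% of all genes were called lower. The median log2 change was -0.72 in KO and -0.75 in WT over S phase genes, and -0.84 in KO and -0.99 in WT over mitotic genes. Without the Dia libraries of highest Alb, a liver transcript, the KO S phase median was -1.13. In KO those Dia libraries also had the highest S phase sums, and the limb libraries of the same columns were kept. Leaving them out thus lowers the KO Dia level of the S phase genes by construction. The part of liver transcript in this median was not tested. The KO medians without the same columns in every muscle are given below.

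Mki67 had 49.2, 71.5 and 93.5 CPM (lowest, median and highest) in KO Dia, against 83.3, 121 and 155 in KO limb libraries. It had 46.0, 67.3 and 87.6 CPM in WT Dia, against 94.2, 124 and 162 in WT limb libraries. The ranges overlapped in KO and not in WT. Mki67 fell by 0.75 ± 0.11 in KO and by 0.91 ± 0.11 in WT on the log2 scale (SE; WT adjusted p = 1.52e-07, edgeR).

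Top2a had 37.2, 46.7 and 60.9 CPM in KO Dia, against 70.7, 97.0 and 130.5 in KO limb libraries. It had 32.2, 41.2 and 49.5 CPM in WT Dia, against 60.5, 96.1 and 114 in WT limb libraries. No Dia library reached a limb library of its genotype. The log2 change of Top2a was -1.01 ± 0.12 in KO and -1.17 ± 0.12 in WT (SE; WT adjusted p = 5.12e-09).

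Bub1 had 4.80, 7.13 and 7.96 CPM in KO Dia, against 11.8, 15.2 and 17.9 in KO limb libraries. It had 4.19, 6.24 and 7.23 CPM in WT Dia, against 10.4, 14.2 and 17.3 in WT limb libraries. These ranges did not overlap in either genotype. Its log2 change of -1.10 ± 0.10 in KO had the smallest p of the members there (SE; adjusted p = 9.26e-10), and in WT it was -1.22 ± 0.11 (adjusted p = 6.25e-10).

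Cdk1 had 25.8, 35.6 and 47.0 CPM in KO Dia, against 34.1, 60.6 and 86.7 in KO limb libraries. It had 21.3, 30.7 and 35.9 CPM in WT Dia, against 44.4, 62.5 and 73.1 in WT limb libraries. The ranges of Cdk1 overlapped in KO and not in WT. Its log2 change was -0.78 ± 0.16 in KO and -0.99 ± 0.12 in WT (SE; WT adjusted p = 9.38e-08). Ccnb1 changed by -0.998 ± 0.17 in KO and by -1.11 ± 0.18 in WT (SE; WT adjusted p = 1.14e-05).

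E2f1 fell by the same estimate in both genotypes, a log2 change of -1.12 ± 0.18 in KO (SE; adjusted p = 1.87e-05) and -1.12 ± 0.08 in WT (adjusted p = 1.33e-11). It had 6.91, 7.37 and 13.2 CPM in KO Dia, against 12.1, 17.4 and 31.8 in KO limb libraries. It had 7.07, 9.20 and 9.70 CPM in WT Dia, against 16.6, 18.6 and 24.3 in WT limb libraries. The overlap in KO came from column 0 of Dia. Ccne1 changed by -1.20 ± 0.25 in KO (adjusted p = 0.00031) and by -1.22 ± 0.15 in WT (SE; adjusted p = 1.01e-07).

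Rrm1 and Rrm2, the subunits of ribonucleotide reductase, had changes nearer 0 than the S phase medians, and Tyms, the gene of thymidylate synthase, had changes further from 0, at -0.83 in KO and -0.97 in WT. Rrm2 had 9.92, 14.8 and 23.5 CPM in KO Dia, against 14.9, 19.6 and 35.9 in KO limb libraries. It had 12.45, 13.96 and 17.6 CPM in WT Dia, against 17.8, 22.3 and 28.2 in WT limb libraries. KO ranges overlapped, and the WT ranges came close without overlap. The log2 change of Rrm2 was -0.48 ± 0.20 in KO (SE; adjusted p = 0.047) and -0.64 ± 0.08 in WT (adjusted p = 8.54e-08), and that of Rrm1 was -0.38 ± 0.15 in KO (adjusted p = 0.0341) and -0.45 ± 0.07 in WT (adjusted p = 2.14e-06).

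Pcna was the 1 member that did not pass in KO. It had 15.98, 18.6 and 27.1 CPM in KO Dia, against 15.998, 22.4 and 44.0 in KO limb libraries, a log2 change of -0.30 ± 0.19 (SE; adjusted p = 0.211). It had 13.7, 19.4 and 21.4 CPM in WT Dia, against 22.3, 25.002 and 35.2 in WT limb libraries, a log2 change of -0.50 ± 0.09 (SE; adjusted p = 4.45e-05). With the column number as a replicate block, the KO change of Pcna was -0.28 ± 0.06 (edgeR adjusted p = 0.000167), and 40 members were called in KO. Calls over all genes rose as well, with 4844 of 14896 genes called lower in that fit, against 3419 in the main fit.

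The helicase and its loaders were also lower in Dia. Mcm2 changed by -0.70 ± 0.22 in KO (SE, edgeR adjusted p = 0.0117) and by -0.78 ± 0.12 in WT (adjusted p = 6.99e-06). Mcm3, Mcm4, Mcm5, Mcm6 and Mcm7 had log2 changes of -0.87 to -0.52 in KO and of -0.98 to -0.58 in WT, with Mcm5 the furthest from 0 and Mcm7 the nearest in both. Cdc6 changed by -1.11 ± 0.25 in KO (SE; adjusted p = 0.000738) and by -1.20 ± 0.10 in WT (adjusted p = 2.69e-10). Cdt1, its partner in loading the helicase, changed by -0.75 ± 0.27 in KO (adjusted p = 0.0246) and by -0.71 ± 0.11 in WT (adjusted p = 6.04e-06).

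Among the mitotic genes not yet given, the cyclins Ccna2 and Ccnb2 changed by -0.97 and -0.93 in KO and by -1.13 and -1.09 in WT. Aurkb and Birc5, which belong to the complex that corrects faulty attachments of chromosomes to the spindle, changed by -1.07 and -1.05 in KO and by -1.11 each in WT. Foxm1, a transcription factor of mitotic genes, changed by -0.90 in KO and by -1.03 in WT. Kif20a, Ube2c and Prc1, which act late in mitosis, changed by -0.58, -0.63 and -0.63 in KO and by -0.79, -0.86 and -0.86 in WT. Across all 24 mitotic genes the range was -1.10 to -0.58 in KO and -1.22 to -0.68 in WT.

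Without KO columns 0 and 1, 39 members were again called lower in KO Dia, with medians of -0.81 over S phase and -0.83 over mitotic genes. Pcna was again the exception, at -0.22 (edgeR adjusted p = 0.0979).

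Library by library, all 6 Dia libraries lay below all 18 limb libraries of KO for 0 of 16 S phase and 11 of 24 mitotic genes, against 4.39% of all genes. In WT they did for 12 of 16 S phase and 20 of 24 mitotic genes, against 6.79% of all genes. The WT exceptions were Aurka, Ccne2, Cdc20, Cdt1, Kif20a, Mcm2, Nusap1 and Rrm1. Within each of the 6 KO columns, the Dia library lay below the 3 limb libraries of its own column for 24 of 24 mitotic genes and for 14 of 16 S phase genes, all but Ccne2 and Pcna, against 15.1% of all genes.

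**Figure D5:**
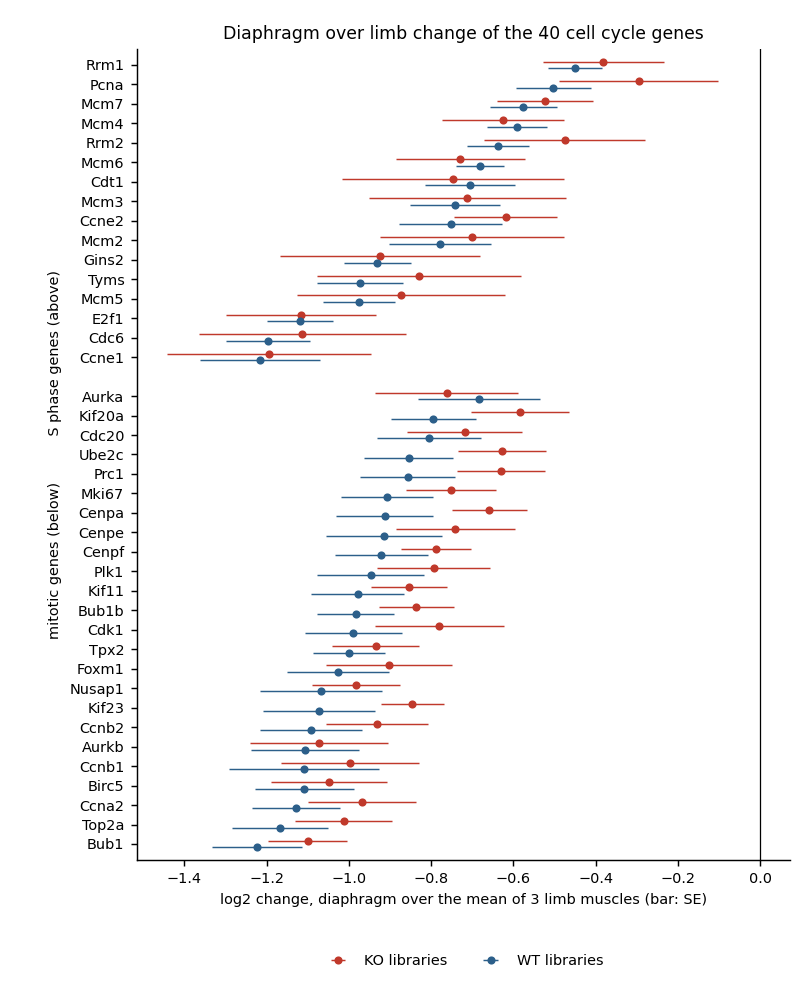
Log2 change of each of the 40 members in Dia over the mean of the 3 limb muscles, with its SE, for KO (red) and WT (blue). All WT points lie between -1.22 and -0.45, and the KO point nearest 0 is Pcna at -0.30.

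Markers of other cells also differed between Dia and limb. The mesothelium marker sum, from the lining of the diaphragm surface, was 123 to 258 CPM in KO Dia, against 1.04 to 3.68 in KO limb libraries, and 122 to 255 in WT Dia, against 1.07 to 2.25 in WT limb libraries. The liver marker sum was 142 to 12853 CPM in KO Dia, against 23.0 to 140.1 in KO limb libraries, and 508 to 7650 in WT Dia, against 22.8 to 63.6 in WT limb libraries. The muscle progenitor marker sum was 467 to 575 CPM in KO Dia, against 667 to 816 in KO limb libraries, and 446 to 610 in WT Dia, against 636 to 820 in WT limb libraries. The fibroblast marker sum had a median of 22404 CPM in KO Dia, against 30805 in KO limb libraries, and 24906 in WT Dia, against 33724 in WT limb libraries. In KO, 6 of 11 progenitor and 6 of 7 cartilage markers were called lower in Dia, 10 of 10 endothelial, 9 of 10 macrophage, 6 of 6 erythroid and 9 of 9 liver markers higher, and fibroblast markers split into 5 lower and 4 higher of 10. In WT, 8 of 11 progenitor and 7 of 7 cartilage markers were called lower, 9 of 10 endothelial, 8 of 10 macrophage, 6 of 6 erythroid and 9 of 9 liver markers higher, and fibroblast markers split into 4 lower and 4 higher of 10. Over all genes the shares called lower and higher were 23.0% and 26.3% in KO and 27.2% and 29.9% in WT. The part of these lists in the lower cell cycle levels of Dia was not tested.

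The rest of the pathway was followed in 4 wider lists. The shares over all genes given above apply to these counts too. Of 49 other replication genes, 39 fell and 1 rose in KO Dia against limb, with a median log2 change of -0.66, and 44 fell and 2 rose in WT, with a median of -0.68. Prim1, the primase that starts each new strand, changed by -1.17 in KO and -0.97 in WT, and Uhrf1, which guides DNA methylation to new DNA, by -0.88 in WT. Of 49 other mitotic genes, 47 fell and 1 rose in KO, with a median of -0.82, and 48 fell and 1 rose in WT, with a median of -0.90. Ncapd2, a condensin subunit that compacts chromosomes, changed by -0.73 in KO and by -0.83 in WT.

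Of 21 G1 cyclins, kinases and regulators, 10 fell and 0 rose in KO Dia against limb, with a median of -0.45, and 13 fell and 1 rose in WT, with a median of -0.46. Ccnd3, a G1 cyclin, changed by -1.19 in KO and -1.14 in WT, and its partner kinase gene Cdk4 by -0.54 in WT. Of 18 cell cycle inhibitors, 7 fell and 4 rose in KO, with a median of -0.06, and 8 fell and 5 rose in WT, with a median of -0.20. Cdkn1c, an inhibitor of cyclin-dependent kinases, changed by -1.18 in KO and -1.08 in WT, while Btg2, an antiproliferative gene, changed by 1.23 in KO and 0.86 in WT. The inhibitors called higher are near or below the share over all genes.

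Between KO and WT, 0 genes of these 4 lists were called in any single muscle. Btg2 came closest, with 55.0 ± 10 CPM in KO and 30.3 ± 6.1 in WT Quad and 96.2 ± 21 in KO and 46.6 ± 9.0 in WT Dia (SD, n = 6 each). Its log2 change was 0.87 in Quad (adjusted p = 0.0568), 0.53 in TA (adjusted p = 0.160), 0.64 in Gastroc (adjusted p = 0.111) and 1.05 in Dia (adjusted p = 0.0635, all edgeR). Over the 4 muscles Btg2 rose by a log2 change of 0.77 ± 0.08 (SE; adjusted p = 3.87e-09), and with counts summed per column number by 0.82 ± 0.12 (adjusted p = 0.03997), with the same limit on WT sums.

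The 48-library fit also called Myc, a growth factor response gene (log2 change 0.34, adjusted p = 0.000273), Wee1, a kinase that holds back Cdk1 (0.26, adjusted p = 0.0136), Gadd45g, a stress response gene (0.29, adjusted p = 0.0233) and Ttk, a spindle checkpoint kinase (0.30, adjusted p = 0.0265). With summed counts none of these 4 passed, at adjusted p-values of 0.224, 0.344, 0.563 and 0.592. In the 48-library fit the calls in these lists were 0 of 49 other replication genes, 1 of 49 other mitotic genes, 1 of 21 G1 genes and 3 of 18 inhibitors, all higher in KO, where 4.71% of all genes were called higher. The counts of the first 3 lists are near or below that share.

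Between limb muscles of WT, Gastroc had the higher levels. Quad had lower levels than Gastroc for 6 of 40 members, where 5.27% of all genes were called lower, and TA for 3 of 40, where 7.32% were. The share of members is thus near the background for TA. Quad and TA differed in 0 members, where 2.06% of all genes differed.

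Cdc6 had 3.77, 4.26 and 4.45 CPM in WT Quad, against 5.12, 5.88 and 6.16 in WT Gastroc, with no overlap and a log2 change of -0.45 (edgeR adjusted p = 0.00488). The others lower in Quad were Rrm2 (-0.33), Mcm6 (-0.24), Gins2, a part of the replication fork helicase (-0.29), Tyms (-0.35) and Kif20a, a kinesin of cell separation (-0.36). Gins2 had 9.39 to 11.2 CPM in WT TA, against 11.98 to 14.7 in WT Gastroc, again with no overlap and a log2 change of -0.36 (adjusted p = 0.00612). Tyms (-0.39) and Mcm4 (-0.25) were the others lower in TA.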

How the data were processed

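The members and gene lists were chosen with earlier results of these data known. Counts were deposited by the authors as exon-overlapping alignments per gene, each pair counted once, per the file headers. The authors' log2 ratio and adjusted p-value came from DESeq2, the latter deposited as a score that is the negative log10 of p times 10, per the file headers. Exonic base pairs were taken from the deposited tables. Picard and mm10 are named in the submitters' processing notes; the aligner: not given in the sources used here. Genes under 10 counts, or flagged for high counts, were left out by the authors, per the file headers. Another 96 columns, of regularised log values and FPKM, were not used.

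CPM were scaled with TMM factors over the 15192 genes in all 4 tables. Counts were tested with edgeR 4.0.16 in R 4.3.3 (filterByExpr, quasi-likelihood F test, Benjamini-Hochberg threshold 0.05): KO against WT in each muscle (12 libraries), over the 4 muscles (48 libraries), and between muscles within a genotype (24 libraries). SE was derived from the log2 change and F. Fits were tested on simulated counts. The replicate numbers of the labels could not be tied to columns. Deviations of KO columns with the same number correlated in all 6 column numbers for every pair of muscles (0.377 to 0.751). KO column numbers thus pair the muscles. WT numbers paired them only in part, with same-number correlations of -0.411 to 0.661. Genes named in the text are called members, else those with the 3 smallest p per set. Not every called member is given for Dia against limb or for the 4 muscles together. Mki67, Top2a, Cdk1, Ccnb1, Pcna, Mcm2, Rrm2 and E2f1 were named whatever their p, though not in every muscle. Up to 4 called genes per wider list and genes whose library order is described were also named. Alternatives were DESeq2 1.42.0, other filters and scalings, left-out libraries and replicate blocks.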

Additional observations from a re-analysis of the deposited data

Results flagged for a closer look

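In 11 of 336 groups of 6 libraries, the highest or lowest library stood apart from the nearest by more than Dixon's 95% critical value for the gap as a share of the range; chance alone gives about 1 in 20 groups. For each, the gap is given as a share of the range. In WT Gastroc, column 5 had 35.1 CPM of Ccne1, with the nearest library at 22.5 (gap 0.762), and an S phase sum of 561 CPM, with the nearest at 506 (gap 0.658). In WT Quad, column 4 had 62.7 CPM of Mcm6, with the nearest at 54.6 (gap 0.723), and an S phase sum of 468 CPM, with the nearest at 424 (gap 0.744). E2f1 was high in column 5 of WT TA, at 22.6 CPM with the nearest at 18.9 (gap 0.689), and low in column 3 of WT Dia, at 7.07 CPM with the nearest at 8.87 (gap 0.687).

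Among mitotic genes, Kif11 was high in column 3 of KO TA, at 47.7 CPM with the nearest at 37.0 (gap 0.682). Kif20a was low in column 3 of WT TA, at 18.02 CPM with the nearest at 23.0 (gap 0.782), and in column 4 of WT Gastroc, at 22.8 CPM with the nearest at 28.6 (gap 0.797). Nusap1 was low in column 5 of KO Quad, at 21.6 CPM with the nearest at 26.3 (gap 0.703), and high in column 0 of KO Dia, at 19.8 CPM with the nearest at 14.8 (gap 0.652).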

How the results depend on the processing

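Of the values that answer a comparison, 351 alternatives were labelled the same and 8 moved. A count of members was the same within a set ratio of the main count, and a median within the SD between libraries. By this rule the S phase median of TA without KO columns 0 and 1, given above, was the same. Without KO columns 0 and 1 the S phase median was -0.31 in Quad, -0.28 in Gastroc and -0.34 in Dia, and the counts of members called were 6 in TA, 14 over the 4 muscles and 11 with counts summed per column number; the last alternative was chosen after seeing the data. Pcna and Rrm2 then reversed over the 4 muscles, to -0.29 and -0.28 in the 48-library fit and -0.32 and -0.29 with summed counts. Leaving out KO columns 0 and 1 lowers the KO level of the S phase genes by construction. The S phase median of KO Dia against limb was -1.13 without the Dia libraries of highest Alb. Those are columns 0 and 1, also the highest in S phase sum, and limb columns 0 and 1 were kept. DESeq2 called 7 members in WT TA against Gastroc. For the other named genes, 2041 of 2167 values were the same, 12 fell short of the threshold, 17 newly passed it and 93 moved; the cause was not tested. Leaving out 1 library at a time gave 0 to 0 members in each KO against WT comparison. The S phase median then ran from -0.13 to 0.05 in Quad, -0.24 to -0.07 in TA, -0.12 to 0.06 in Gastroc and -0.19 to 0.08 in Dia. The mitotic median ran from -0.02 to 0.09, -0.07 to 0.05, 0.02 to 0.13 and 0.13 to 0.26. For Dia against limb, leaving out 1 Dia library at a time (limb libraries were all kept) gave 35 to 39 members in KO (S phase median -0.88 to -0.62, mitotic -0.90 to -0.81) and 40 to 40 in WT (S phase -0.79 to -0.71, mitotic -1.04 to -0.94). With the column number as a replicate block, 40 members were called in KO Dia against limb. Genes called lower there rose from 3419 to 4844 of 14896. In WT Quad against Gastroc, where the numbers paired the libraries only in part, 8 members were called. The block changed no other member call. A block nested in genotype could not be estimated over the 4 muscles, so summed counts were used. The alternative with the authors' deposited FPKM was not run. The lowest count of a member in any library was 18.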

Other observations

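The ratio of the S phase sum to the mitotic sum had a gap below the second highest of the 6 libraries in every group, WT included. In KO the 2 highest ratios were 0.598 and 0.583 in Quad, with the third at 0.463, 0.587 and 0.585 in TA, with the third at 0.469, 0.601 and 0.585 in Gastroc, with the third at 0.495, and 0.709 and 0.651 in Dia, with the third at 0.559. In WT they were 0.646 and 0.643 in Quad, with the third at 0.499, 0.702 and 0.696 in TA, with the third at 0.508, 0.677 and 0.661 in Gastroc, with the third at 0.530, and 0.894 and 0.771 in Dia, with the third at 0.606. The KO libraries were columns 0 and 1 in every muscle. The WT libraries were columns 1 and 4 in Quad, 5 and 3 in TA, 5 and 4 in Gastroc and 4 and 5 in Dia. The libraries were ordered by this ratio after its values were seen, the gap was not tested, and no group was formed from it.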
